A study of Mus musculus with 6 samples.

Results

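The genes described here are 10 clock genes outside the nuclear receptor family: the repressor genes Per1, Per2, Per3, Cry1, Cry2 and Ciart, the output activator genes Dbp, Tef and Hlf, and the output repressor gene Nfil3. They were chosen by name from the 57180 genes of the deposited count table. All 10 were found there once, and all 10 had enough counts to be among the 17320 genes tested. RNA from inguinal white adipose tissue, the fat pad under the skin of the groin, was sequenced in 6 libraries. All mice were wild type and on a high-fat diet, described as obese from it, and the labels put all 6 libraries in batch 1. The ADISSP group held 3 libraries from mice that had received rAdissp, a form of the fat-cell protein Adissp, at 68 nmol/kg each day over 33 days. The Control group held 3 libraries, and the labels do not say what these mice received. The labels call the libraries biological triplicates, and they give neither the age or sex of the mice nor the hour at which tissue was taken.

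The circadian clock of a mammalian cell is a loop in which CLOCK and BMAL1 switch on genes through the E-box, and the products of the Per, Cry and Ciart genes then hold CLOCK and BMAL1 back. A further layer acts through the D-box, where DBP, TEF and HLF activate and NFIL3 represses. Fat cells carry this clock, and the RNA of Per and Dbp genes in fat rises and falls over the day while that of Bmal1 runs in the opposite phase.

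Total counts were 10357930 to 15658428 in ADISSP libraries and 13966685 to 15400072 in Control libraries. Values are counts per 1000000 (CPM), scaled by TMM factors of 0.88 to 0.90 in ADISSP and 1.05 to 1.18 in Control. Transcripts of the mitochondrial genome held 8.43% to 11.1% of counts in ADISSP and 3.13% to 4.20% in Control. Adipocyte markers were present throughout, with 6 of them summing to 16576 to 18786 CPM in ADISSP and 11992 to 16170 CPM in Control, and 6 mammary markers summed to 0.110 to 0.554 CPM in ADISSP and 0.605 to 2.25 CPM in Control. Other marker sums differed between ADISSP and all 3 controls. The 6 macrophage markers summed to 281 to 388 CPM in ADISSP and 639 to 735 CPM in Control. The 6 adipocyte progenitor and fibroblast markers summed to 1466 to 1896 CPM in ADISSP and 3076 to 3531 CPM in Control. The 6 endothelial markers summed to 612 to 745 CPM in ADISSP and 865 to 916 CPM in Control. In muscle and B cell markers the library Control 3 also stood apart from the other controls. Its 6 skeletal muscle markers summed to 8054 CPM, against 30.6 CPM in Control 1, 38.2 CPM in Control 2 and 2796 to 3210 CPM in ADISSP. Its 6 B cell markers summed to 63.6 CPM, against 265 CPM in Control 1, 324 CPM in Control 2 and 3.24 to 6.29 CPM in ADISSP. Results that rest on Control 3 are therefore given with and without it. In whole tissue, fewer cells of a type and less RNA per cell cannot be told apart.

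Of the 10 clock genes, 2 rose in ADISSP, Hlf and Nfil3, and 0 fell. The test was the quasi-likelihood test of edgeR, with p adjusted over all tested genes by the Benjamini-Hochberg method and a threshold of 0.05. At that threshold 35.0% of genes were called, 18.5% higher in ADISSP and 16.5% lower. None of the 10 was lower at an unadjusted p under 0.05, and DESeq2 called 0 lower. The count of 2 in 10 is thus near the share of all genes that rose. The median log2 fold change of ADISSP over Control was 0.40 over the 10 genes and -0.01 over all tested genes. The median of the 10 depends on Control 3. Against Control 3 alone, Dbp, Per2, Cry2, Per3 and Cry1 were -1.01, -0.26, -0.10, -0.04 and -0.03. Tef, Per1, Ciart, Hlf and Nfil3 were 0.05, 0.14, 0.77, 0.99 and 1.97 there, where the median of all genes was 0.002. Without Control 3, Dbp was -0.17 and the others 0.16 to 1.99, where it was -0.0015. In 4 of the 10, Per1, Hlf, Nfil3 and Ciart, every ADISSP library stood above every Control library, and in 0 every ADISSP library stood below. Over all tested genes 26.0% stood above and 23.8% below in this way, or 49.8% in all. The Control libraries differed among themselves more than the ADISSP libraries did in 9 of the 10 genes by coefficient of variation, and the exception was Nfil3. That count includes Control 3 and was not made without it. It was not made over all tested genes either, so it does not show a trait of the clock genes. On other scales the split of all genes was different: with TMM factors 3197 genes were higher and 2861 lower, and on library totals without these factors 1759 were higher (10.2%) and 6577 lower (38.0%), with a median log2 fold change of -0.36. On log2(TPM + 1) in limma 1242 genes were higher (6.46%) and 9309 lower (48.4%). Hlf and Nfil3 were higher on both scales, and of the 10 genes 1 was lower on library totals, Dbp, and 3 on TPM, Dbp, Cry1 and Cry2.

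**Figure D1:**
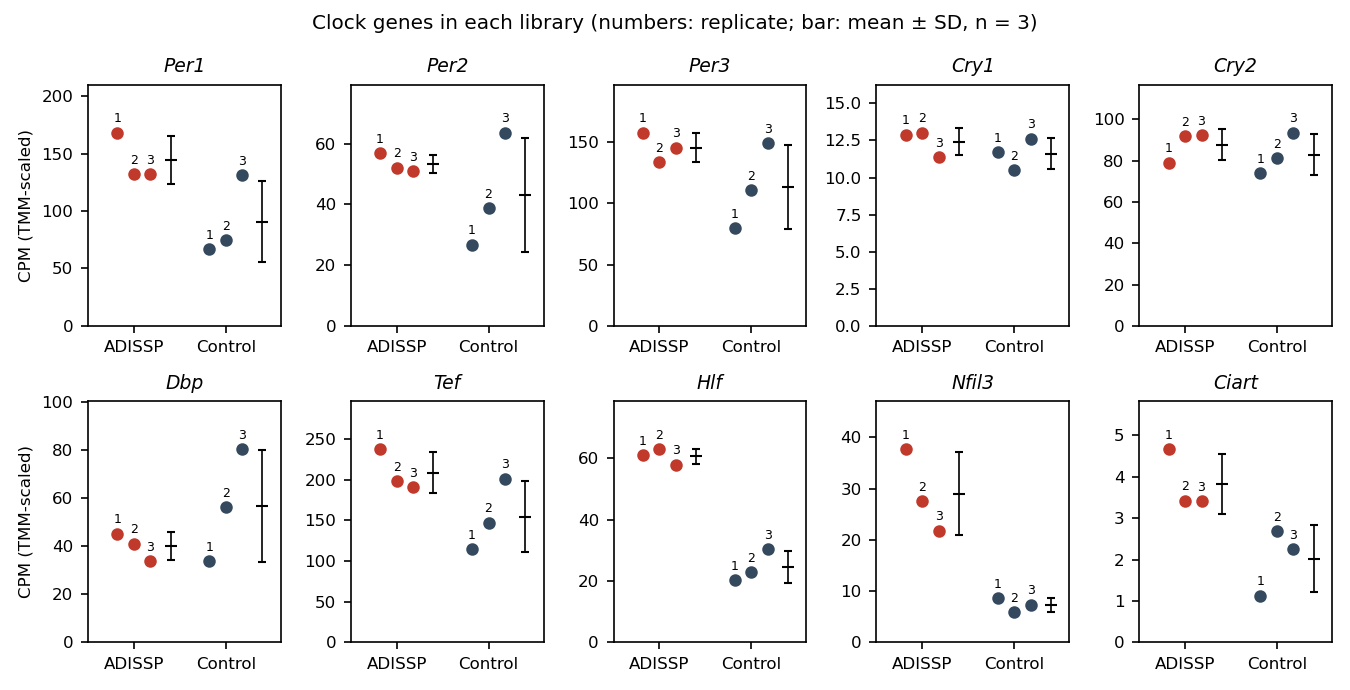
CPM of the 10 clock genes in each library, with ADISSP left and Control right in each panel, replicate numbers above the points, and bars for the mean ± SD (n = 3). Hlf and Nfil3 show groups that stand well apart, while in Per1, Per2, Per3, Dbp and Tef the Control 3 point lies far above Control 1.

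The gene of the D-box repressor, Nfil3 (ENSMUSG00000056749, GRCm39 chromosome 13, 53121245 to 53135109, minus strand), had the largest change among the 10. It stood at 37.6, 27.6 and 21.8 CPM in ADISSP 1, 2 and 3, against 8.66, 5.94 and 7.36 CPM in Control 1, 2 and 3. All 3 ADISSP libraries lay above all 3 Control libraries, and Control 3 lay between the other controls. Nfil3 rose 3.96-fold (log2 fold change 1.99, SE 0.23, adjusted p = 0.000381 in edgeR). It remained called in each fit with 1 library left out, with edgeR adjusted p from 0.00038 without Control 3 to 0.00344 without ADISSP 2. Against Control 3 as the only control its log2 fold change was 1.97. Nfil3 is also known for roles in lymphocytes. All 6 B cell markers and 5 of 6 T and natural killer cell markers were lower in ADISSP. Ncr1, of the latter list and picked out for its value, did not pass (log2 fold change 0.34, edgeR adjusted p = 0.684). The part of these cells in the Nfil3 values was not tested.

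Hlf (ENSMUSG00000003949, GRCm39 chromosome 11, 90227362 to 90281721, minus strand) encodes a D-box activator. It stood at 61.0, 63.0 and 58.0 CPM in ADISSP 1, 2 and 3, against 20.3, 23.0 and 30.5 CPM in Control 1, 2 and 3. The ADISSP libraries lay close together and far above the controls, of which Control 3 was the highest. Hlf rose 2.47-fold (log2 fold change 1.30, SE 0.15, adjusted p = 0.000286 in edgeR). It was called in each fit with 1 library left out, with adjusted p from 3.9e-07 without Control 3 to 0.00368 without ADISSP 2. Against Control 3 alone its log2 fold change was 0.99, and on log2(TPM + 1) in limma it was 0.71 (adjusted p = 0.00556), where the median of all genes was -0.52. In both of these the rise was smaller than with all 6 libraries on CPM, and on TPM its call was kept.

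The stretches before the annotated starts of Hlf and Nfil3 are shown because these were the called genes, and those of Ciart and Per3 because they hold the most E-box and D-box matches among the 10. Each is 250 bases that end at the base before a transcript start, 5′ to 3′ on the gene's strand, from RefSeq on GRCm38.p6. The positions are chr11:90390918-90391167 for Hlf, chr13:52981040-52981289 for Nfil3, chr3:95882229-95882478 for Ciart and chr4:151044666-151044915 for Per3, all on the minus strand. Capitals mark the E-box CACGTG, the D-box TTATGTAA or TTACGTAA, the cAMP response element TGACGTCA and its shorter core TGACG, searched on both strands together with the RORE, a site of clock nuclear receptors. The core lies within the full cAMP response element and matches wherever the full element does.
Hlf: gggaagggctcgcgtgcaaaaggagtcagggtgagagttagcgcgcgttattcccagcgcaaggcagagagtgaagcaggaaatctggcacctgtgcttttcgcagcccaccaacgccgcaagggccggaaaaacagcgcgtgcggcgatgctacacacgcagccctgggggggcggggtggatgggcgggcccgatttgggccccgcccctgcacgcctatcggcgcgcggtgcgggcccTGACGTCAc
Nfil3: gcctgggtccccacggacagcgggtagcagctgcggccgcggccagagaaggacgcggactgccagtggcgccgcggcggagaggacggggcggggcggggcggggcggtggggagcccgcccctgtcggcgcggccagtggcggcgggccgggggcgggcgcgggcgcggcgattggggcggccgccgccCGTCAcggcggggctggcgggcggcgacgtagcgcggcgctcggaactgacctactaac
Ciart: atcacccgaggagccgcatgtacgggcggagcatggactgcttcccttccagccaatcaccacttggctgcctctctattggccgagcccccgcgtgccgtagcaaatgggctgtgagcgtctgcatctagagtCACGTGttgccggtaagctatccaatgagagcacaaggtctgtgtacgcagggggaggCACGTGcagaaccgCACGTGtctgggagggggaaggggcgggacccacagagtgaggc
Per3: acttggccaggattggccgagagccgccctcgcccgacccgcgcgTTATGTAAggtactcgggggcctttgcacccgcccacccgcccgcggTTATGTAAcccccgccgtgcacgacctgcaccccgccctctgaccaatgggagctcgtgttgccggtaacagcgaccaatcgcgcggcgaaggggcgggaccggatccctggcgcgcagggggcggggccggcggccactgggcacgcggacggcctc
Such stretches were at hand for 9 of the 10 genes, with 11 starts in all, and Per2 had none. The Hlf stretch holds the full cAMP response element at 9 to 2 bases before the start, a match found in 1.55% of the 32851 stretches of all genes. The Nfil3 stretch holds the core alone, on the other strand, at 59 to 55 bases before the start, and 17.8% of all stretches hold the core. The Ciart stretch holds the E-box at 3 places, the first base of each 116, 58 and 44 bases before the start, and 6.02% of all stretches hold at least 1 E-box. Per3 holds the D-box TTATGTAA at 2 places, first bases 205 and 158 before the start, against 0.931% of all stretches with any. The core also lies in the stretches of Per1 at both starts, of Cry1 and of Cry2, genes that did not pass. An E-box also lies in the stretches of Cry1, of Tef at both starts and of Per1 at 1 of 2 starts. The Dbp stretch holds none of these motifs, and the RORE, found in 0.177% of all stretches, is in none of the 11. A match is a run of letters and does not show that a protein binds there.

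The Per genes encode the proteins that pair with cryptochromes to repress CLOCK and BMAL1. Per1 (ENSMUSG00000020893, chromosome 11, 68986043 to 69000786, plus strand), the family member known to respond fastest to hormones and cAMP, stood at 168, 132 and 132 CPM in ADISSP 1, 2 and 3, against 66.9, 74.6 and 131 CPM in Control 1, 2 and 3. The groups did not overlap, but Control 3 lay just below the 2 lower ADISSP libraries. Its log2 fold change was 0.67 (SE 0.27, 95% interval 0.01 to 1.32) and did not pass in edgeR (adjusted p = 0.104), while DESeq2's Wald test gave 0.65 with an adjusted p of 0.0283, where 13.9% of genes were higher. Per2 (ENSMUSG00000055866, chromosome 1, 91343704 to 91387046, minus strand), whose protein is a core member of the repressor complex, stood at 56.9, 52.2 and 51.0 CPM in ADISSP, against 26.8, 38.8 and 63.6 CPM in Control. The ADISSP libraries lay within the spread of the controls, of which Control 3 was higher than any ADISSP library. The log2 fold change of Per2 was 0.31 (SE 0.31, 95% interval -0.44 to 1.06, edgeR adjusted p = 0.475).

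Per3 (ENSMUSG00000028957, chromosome 4, 151088109 to 151129122, minus strand), a paralogue whose loss is known to leave the clock running, stood at 157, 133 and 145 CPM in ADISSP, against 79.8, 111 and 149 CPM in Control. Control 3 lay among the ADISSP libraries and the other controls below them. The log2 fold change of Per3 was 0.36 (SE 0.21, 95% interval -0.13 to 0.85, edgeR adjusted p = 0.218). Without Control 3 all 3 Per genes passed in edgeR, Per1 at 1.03 (adjusted p = 3.43e-05), Per2 at 0.70 (adjusted p = 0.00211) and Per3 at 0.61 (adjusted p = 0.0042). In that fit 23.6% of all tested genes were higher and 23.1% lower. The muscle markers there summed to 30.6 and 38.2 CPM in Control and 2796 to 3210 CPM in ADISSP, so muscle RNA and treatment cannot be told apart. Against Control 3 alone, a fit with 1 control library, Per1, Per2 and Per3 were 0.14, -0.26 and -0.04.

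The cryptochrome genes were the most even of the 10. Cry1 (ENSMUSG00000020038, chromosome 10, 84967564 to 85020928, minus strand), the stronger repressor of the pair, stood at 12.9, 13.0 and 11.4 CPM in ADISSP, against 11.7, 10.5 and 12.6 CPM in Control. Cry2 (ENSMUSG00000068742, chromosome 2, 92233991 to 92264388, minus strand) stood at 79.0, 91.9 and 92.3 CPM in ADISSP, against 74.0, 81.3 and 93.6 CPM in Control. In both genes the groups overlapped. The log2 fold change was 0.10 for Cry1 (SE 0.15, 95% interval -0.23 to 0.43, edgeR adjusted p = 0.641) and 0.08 for Cry2 (SE 0.11, 95% interval -0.18 to 0.34, edgeR adjusted p = 0.616). On log2(TPM + 1) both were called lower in limma, Cry1 at -0.45 (adjusted p = 0.0152) and Cry2 at -0.49 (adjusted p = 0.00926), which is close to the median of -0.52 over all genes on that scale.

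Ciart (ENSMUSG00000038550, chromosome 3, 95785815 to 95789563, minus strand), also called Chrono, encodes a small repressor of CLOCK and BMAL1 and was the least abundant of the 10. It had 59, 31 and 48 counts in ADISSP and 20, 49 and 33 counts in Control. This came to 4.67, 3.42 and 3.41 CPM in ADISSP, against 1.13, 2.69 and 2.25 CPM in Control. The groups did not overlap in CPM, though in raw counts they did. Its log2 fold change was 0.92 (SE 0.35, 95% interval 0.12 to 1.72, edgeR adjusted p = 0.0720). It passed without Control 3 (1.00, edgeR adjusted p = 0.0453), where 23.6% of genes were higher. It also passed with no filter on low counts (0.91, edgeR adjusted p = 0.0461), where 10.1% of genes were higher. The whole of Ciart lies across the long non-coding gene C920021L13Rik on the other strand, which had 245 counts over the 6 libraries beside 240 for Ciart, so reads of these genes cannot be told apart without strand, and no strand setting is stated.

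Dbp and Tef encode the other D-box activators, and neither passed with all 6 libraries. Dbp (ENSMUSG00000059824, chromosome 7, 45354512 to 45359627, plus strand), known as one of the most strongly rhythmic mRNAs of many mouse tissues, stood at 45.2, 41.0 and 33.9 CPM in ADISSP, against 33.8, 56.3 and 80.4 CPM in Control. Control 1 lay just below the ADISSP range, and Control 2 and 3 lay above it. The log2 fold change of Dbp was -0.50 (SE 0.32, 95% interval -1.29 to 0.28, edgeR adjusted p = 0.272). It passed as lower without Control 1 (-0.77, edgeR adjusted p = 0.0203), where 8.83% of genes were lower. It also passed on library totals (-0.84, edgeR adjusted p = 0.0459) and on log2(TPM + 1) in limma (-0.99, adjusted p = 0.0223), and on the TPM scale 48.4% of genes were lower. Against Control 3 alone Dbp was -1.01, in a fit with 1 control library that holds no spread among controls. The coefficient of variation of Dbp was 41.0% in Control and 14.3% in ADISSP. Without Control 3 it was -0.17 (edgeR adjusted p = 0.572). Dbp shares 737 bases with Sphk2 on the other strand, which was higher in ADISSP (log2 fold change 0.42, edgeR adjusted p = 0.00834). Tef (ENSMUSG00000022389, chromosome 15, 81686622 to 81711064, plus strand) stood at 237, 198 and 191 CPM in ADISSP, against 115, 147 and 201 CPM in Control. Control 3 lay within the ADISSP range and the other controls below it. The log2 fold change of Tef was 0.44 (SE 0.20, 95% interval -0.03 to 0.90, edgeR adjusted p = 0.128). Without Control 3 it passed at 0.67 (edgeR adjusted p = 0.00139), where 23.6% of genes were higher.

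With Control 3 left out, 7 of the 10 genes were higher past the threshold and 0 lower, where 23.6% of all tested genes were higher and 23.1% lower. Those 7 were Per1, Per2, Per3, Tef, Hlf, Nfil3 and Ciart. In that fit the 6 skeletal muscle markers summed to 30.6 and 38.2 CPM in the controls and 2796 to 3210 CPM in ADISSP. Muscle RNA and treatment can therefore not be told apart there. With Control 3 as the only control, Hlf and Nfil3 were higher and Dbp was lower, where 10.3% of genes were higher and 7.12% lower. That fit takes its spread from the ADISSP libraries and assumes that Control 3 varies like them, and it shares them and Control 3 with the fit of all 6 libraries. Control 3 carried the most muscle RNA of the 6 libraries and the highest Per2, Cry2 and Dbp. Dbp stood at 33.8 CPM in Control 1 and 56.3 CPM in Control 2, and Per2 at 26.8 and 38.8 CPM. The part of muscle RNA or of the hour of collection in these values was not tested.

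**Figure D2:**
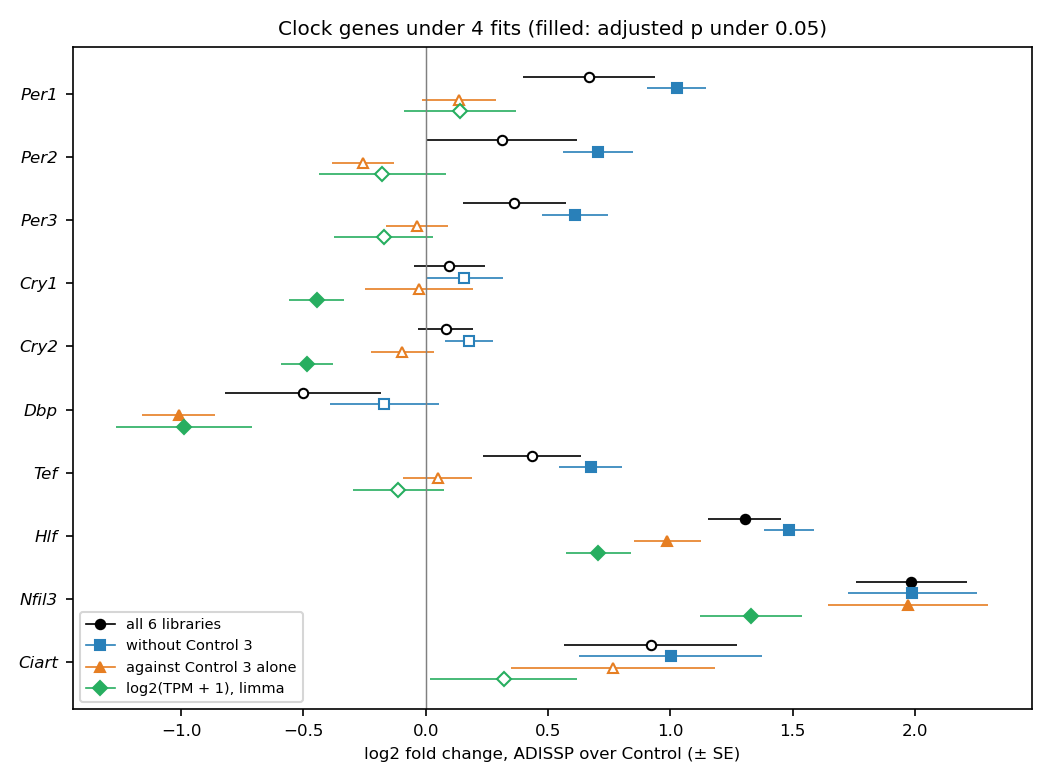
Log2 fold change of ADISSP over Control ± SE for the 10 clock genes with all 6 libraries, without Control 3, against Control 3 alone (all edgeR) and on log2(TPM + 1) (limma). The fit against Control 3 alone has 1 control library and holds no spread among controls. Filled symbols have an adjusted p under 0.05: Hlf and Nfil3 are filled in all 4, the Per genes, Tef and Ciart only without Control 3, Dbp only against Control 3 alone and on TPM, and Cry1 and Cry2 only on TPM.

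Levels were compared between genes per length, in TPM. In ADISSP, Tef averaged 75.0 ± 9.46 TPM and Per1 72.4 ± 11.1 TPM, followed by Per3 at 42.8 ± 4.79, Nfil3 at 40.4 ± 11.03, Cry2 at 39.3 ± 3.77 and Dbp at 37.8 ± 4.83 TPM (SD, n = 3). The ranges of Tef and Per1 overlapped, those of the next 4 overlapped each with its neighbour, and a gap separated Per1 from Per3. Below them stood Per2 at 25.8 ± 1.79, Hlf at 25.7 ± 0.266, Cry1 at 10.5 ± 0.474 and Ciart at 4.796 ± 0.945 TPM. In Control the order was Tef at 82.3 ± 19.6, Dbp at 79.5 ± 29.3, Per1 at 67.3 ± 21.9, Cry2 at 55.3 ± 4.62, Per3 at 49.4 ± 13.0 and Per2 at 30.7 ± 11.8 TPM, each overlapping the next. Hlf at 15.5 ± 2.54, Nfil3 at 15.2 ± 2.72 and Cry1 at 14.7 ± 0.573 TPM overlapped too, and Ciart was lowest at 3.797 ± 1.59 TPM. Nfil3 thus ranked 4 of 10 in ADISSP and 8 of 10 in Control, while Dbp ranked 6 in ADISSP and 2 in Control. In TPM, all ADISSP libraries were above all Control libraries for Hlf and Nfil3, as for 8.39% of the 19221 genes with a mean of at least 1 TPM, and below them for Dbp, Cry1 and Cry2, as for 57.2%. The groups overlapped in TPM for the other 5, Per1 and Ciart among them.

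Ratios of counts within a library do not depend on how libraries are scaled. The log2 ratio of the activator Dbp over the repressor Nfil3, which compete for the same D-box, was 0.26, 0.57 and 0.64 in ADISSP 1, 2 and 3, against 1.96, 3.24 and 3.44 in Control 1, 2 and 3. The groups were far apart, with a difference of -2.39 (exact permutation p = 0.1, two-sided, the smallest that 3 against 3 allows, and 0.25 adjusted over 5 ratios). This largely restates the rise of Nfil3, with a log2 fold change of 1.99. Dbp was -0.50 and did not pass (edgeR adjusted p = 0.272). The log2 ratio of Per1 over Per2 was 1.56, 1.34 and 1.37 in ADISSP, against 1.32, 0.94 and 1.04 in Control, a difference of 0.32 with an exact permutation p of 0.1 (0.25 adjusted). The groups did not overlap, by a narrow margin at Control 1.

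The ratios of Dbp over Bmal1, Nr1d1 over Bmal1 and Per2 over Cry1 differed more among the Control libraries than between the group means. The log2 ratio of Dbp over Bmal1 was 1.66, 0.92 and 0.45 in ADISSP, against 0.36, 1.61 and 3.09 in Control. Control 1 and Control 3 held the lowest and the highest value of the 6 libraries. The difference was -0.68 (exact permutation p = 0.7), and it was 0.02 without Control 3. The log2 ratio of Nr1d1 over Bmal1 was 3.74, 2.79 and 2.70 in ADISSP, against 2.46, 3.15 and 4.35 in Control, a difference of -0.25 (exact permutation p = 0.7). The log2 ratio of Per2 over Cry1 was 2.14, 1.998 and 2.16 in ADISSP, against 1.19, 1.88 and 2.33 in Control, a difference of 0.30 (exact permutation p = 0.6). In both ratios the controls spanned the ADISSP libraries.

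**Figure D3:**
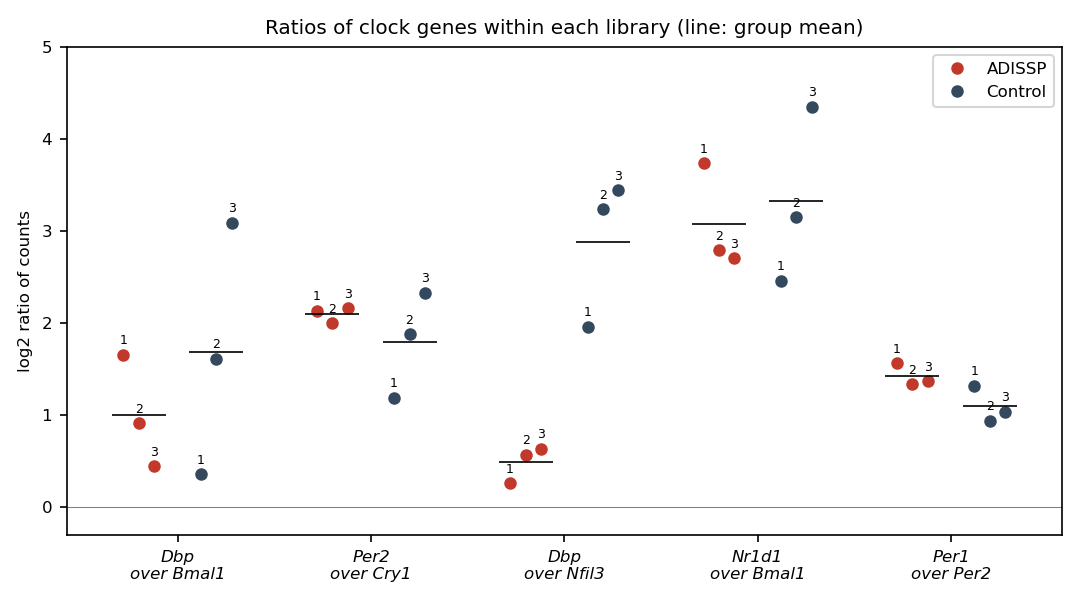
Log2 ratio of counts of 5 pairs of clock genes within each library, ADISSP left and Control right in each pair, with replicate numbers above the points and lines for group means. Dbp over Nfil3 separates the groups (0.26 to 0.64 in ADISSP, 1.96 to 3.44 in Control), and Dbp over Bmal1 spans 0.36 to 3.09 within Control alone.

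Of 16 other core clock genes counted, 4 rose, 2 fell and 10 did not pass, with a median log2 fold change of 0.06. These are 25% higher and 12.5% lower, near the 18.5% and 16.5% of all genes, and with 1 library left out 1 to 3 were higher and 0 to 2 lower. The genes of the activators that drive the loop did not pass with TMM factors and all 6 libraries. Clock averaged 139 ± 8.25 CPM in ADISSP and 144 ± 14.8 CPM in Control (SD, n = 3 each, log2 fold change -0.06, SE 0.11, edgeR adjusted p = 0.705). Bmal1 stood at 14.3, 21.7 and 24.8 CPM in ADISSP, against 26.3, 18.4 and 9.41 CPM in Control. Its groups overlapped, and Control 3, highest in Dbp, was lowest in Bmal1. The log2 fold change of Bmal1 was 0.17 (SE 0.40, edgeR adjusted p = 0.779) and -0.14 without Control 3 (edgeR adjusted p = 0.679). It was 1.10 against Control 3 alone, a fit with 1 control library. Nr1d1, which encodes the nuclear receptor that represses Bmal1, stood at 191, 151 and 162 CPM in ADISSP, against 145, 164 and 193 CPM in Control (log2 fold change 0.01, SE 0.14, edgeR adjusted p = 0.973). Clock and Nr1d1 were called lower on library totals (-0.41 and -0.34, edgeR adjusted p = 0.0164 and 0.0423), where the median of all genes was -0.36. Both were also called lower on log2(TPM + 1) in limma (-0.62 and -0.57, adjusted p = 0.00595 and 0.0119), where that median was -0.52.

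Nuclear receptor genes among them moved in different directions. Rorb rose by 1.499 on the log2 scale (SE 0.23, edgeR adjusted p = 0.00164) and was called in each fit with 1 library left out, but not on log2(TPM + 1) in limma (0.54, adjusted p = 0.0786). Rora fell by 0.44 (SE 0.13, edgeR adjusted p = 0.0283), and Nr1d2, a relative of Nr1d1, fell by 0.37 (SE 0.11, edgeR adjusted p = 0.0312). Rora lost its call without ADISSP 1, 2 or 3 or Control 1 (adjusted p up to 0.128), and Nr1d2 without ADISSP 1, 2 or 3 or Control 2 (adjusted p up to 0.141). The other 3 with a rise were picked out for their values: the E-box repressor gene Bhlhe40 (1.00, adjusted p = 0.0317), the Bmal1 paralogue Bmal2 (0.53, adjusted p = 0.0388) and the kinase gene Csnk1d (0.26, adjusted p = 0.0488), whose product phosphorylates PER proteins. Csnk1d was instead lower on log2(TPM + 1) in limma (-0.32, adjusted p = 0.0111), and Bmal2 was -0.037 there. Each of these 3 lost its call in at least 4 of the 6 fits with 1 library left out, Bhlhe40 in those without ADISSP 1, 2 or 3 or Control 2 (adjusted p up to 0.109), Bmal2 in all but that without ADISSP 2 (up to 0.114) and Csnk1d in all but that without Control 3 (up to 0.179).

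Of 23 genes known as clock outputs, 11 rose and 0 fell, with a median log2 fold change of 0.41. At an unadjusted p under 0.05 in edgeR 1 was lower, Sirt1, picked out for its value (-0.38, adjusted p = 0.1002), and DESeq2 called 0 lower. The 3 with the smallest p were Elovl3, a fatty acid elongase gene of brown fat (3.995, SE 0.20, edgeR adjusted p = 7.64e-06), Nampt, which makes the NAD precursor (1.63, SE 0.11, edgeR adjusted p = 1.9e-05), and Pdk4, which limits pyruvate oxidation (3.13, SE 0.29, edgeR adjusted p = 0.000302). Usp2, a deubiquitinase gene with a strong daily rhythm in many tissues, stood at 46.0, 45.9 and 43.0 CPM in ADISSP, against 12.7, 11.05 and 38.1 CPM in Control. Control 3 lay close under the ADISSP libraries and far above the other controls. Usp2 did not pass with all libraries (1.13, SE 0.52, edgeR adjusted p = 0.157), passed without Control 3 (1.92, edgeR adjusted p = 1.66e-07), and was 0.23 against Control 3 alone. Without Control 3, 15 outputs were higher and 3 lower past the threshold, where 23.6% of all genes were higher and 23.1% lower. The 3, picked out for their values, were Id2 (-0.44), Cirbp (-0.46) and Sirt1 (-0.48).

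Per1 and Nfil3 are known to be induced by glucocorticoids and by cAMP, so genes of these responses were counted too. Of 15 glucocorticoid-responsive genes, 8 rose and 0 fell, with a median log2 fold change of 0.43. At an unadjusted p under 0.05 none was lower, and DESeq2 called 9 higher and 0 lower. Fkbp5 and Tsc22d3 were among the 7 that did not pass: Fkbp5 was -0.09 (SE 0.19, edgeR adjusted p = 0.745) and Tsc22d3 was 0.21 (SE 0.16, edgeR adjusted p = 0.345, and 0.41 with adjusted p = 0.00407 without Control 3). The 3 with the smallest p were Pnpla2, the first lipase of fat breakdown (1.35, edgeR adjusted p = 0.000232), the metallothionein gene Mt1 (2.44, edgeR adjusted p = 0.000753) and the phosphatase gene Dusp1 (1.41, edgeR adjusted p = 0.00686). The count of 8 was 13 without Control 3, where 23.6% of all genes were higher, and 3 against Control 3 alone, where 10.3% were. It was 3 without Control 1 (12.8% of all genes higher), 4 without Control 2 (13.4%) and 5 without ADISSP 1, 2 or 3 (13.6%, 13.6% and 14.4%). Of 15 cAMP-responsive genes, 8 rose and 1 fell, with a median log2 fold change of 0.60. Ppargc1a, a coactivator of mitochondrial genes, rose by 3.09 (edgeR adjusted p = 1.59e-06), the phosphodiesterase gene Pde4d by 1.52 (edgeR adjusted p = 0.000546) and the AP-1 gene Junb by 0.94 (edgeR adjusted p = 0.000814). The 1 that fell was Pde4b, picked out for its value (-0.64, edgeR adjusted p = 0.00357). Each of the output, glucocorticoid and cAMP lists had a larger share of higher calls than the 18.5% of all genes. The lists were chosen with earlier results of these data known, and they share Klf9, Dusp1 and Tsc22d3 with each other. On log2(TPM + 1) in limma the calls were 7 higher and 7 lower for outputs, 4 and 2 for glucocorticoid genes, 5 and 4 for cAMP genes and 0 and 8 for the other core clock genes, where the median of all genes was -0.52.

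**Figure D4:**
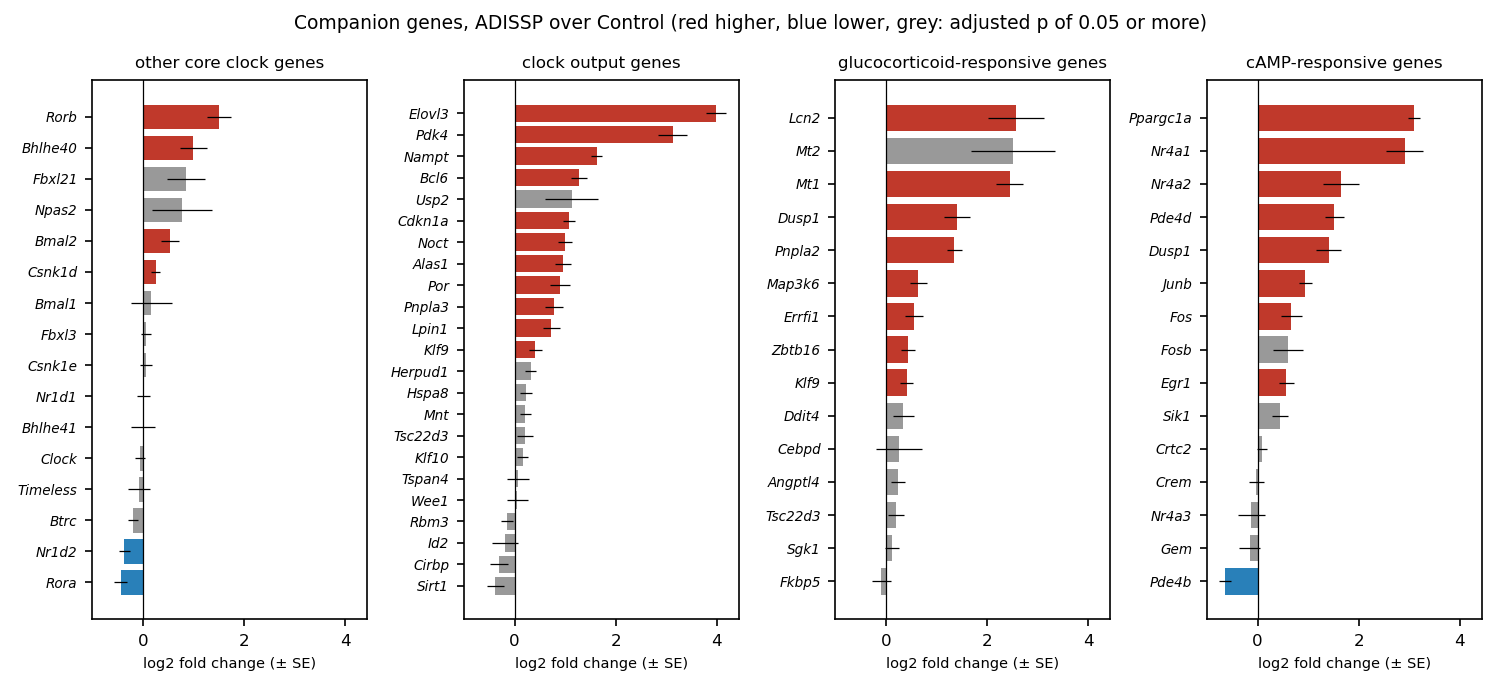
Log2 fold change of ADISSP over Control ± SE for 4 lists of companion genes, red for called higher, blue for called lower and grey for not past the threshold. The core clock list has 4 red and 2 blue bars of 16, and the clock output list has 11 red and 0 blue bars of 23.

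Genes whose log2 CPM followed a clock gene most closely over the 6 libraries were looked up among 13478 genes with a mean of at least 1 CPM. For Hlf they were the nuclear receptor gene Nr4a1, the mitochondrial carrier gene Slc25a48 and Ddo, with Pearson r of 0.9997, 0.9995 and 0.9994. Nr4a1, a gene induced early by cAMP, stood at 119, 128 and 113 CPM in ADISSP, against 9.91, 12.7 and 25.6 CPM in Control, with the same order of libraries as Hlf. For Nfil3 they were Cnpy2 (0.9984), Parl (0.9983) and Tmem177 (0.9978). For Per2 they were Pmepa1 (0.9955), Syde1 (0.9894) and Mocos (0.9879), and for Dbp Ppp4r1 (0.9968), Dixdc1 (0.9788) and Fam20c (0.9775). In Hlf and Nfil3 the 6 points fall into the 2 separate groups, and in Per2 and Dbp the spread lies mainly among the Control libraries. The genes share libraries, depth and scaling.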

How the data were processed

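Inguinal fat RNA of 6 mice was analysed from the tables the authors deposited. The submitters' processing notes name STAR, featureCounts and mm39 (GRCm39), with no versions, annotation release or strand setting. The authors deposited whole counts for 57180 genes, and TPM and FPKM values for 23524 of them. The deposited FPKM values served to derive gene lengths, and the deposited TPM values to compare genes and as an alternative scale. All columns matched a library by header (0 unmapped).

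The count test was edgeR 4.0.16 in R 4.3.3: genes kept by filterByExpr, TMM factors, a robust quasi-likelihood fit of 3 ADISSP against 3 Control libraries with no covariate, and Benjamini-Hochberg adjustment over 17320 genes. The standard error is the log2 fold change over the square root of F. The p-values rest on the spread between 3 libraries a group, which edgeR draws towards a trend over all tested genes. The method was tested on simulated data with the same spread for every gene and no library that stood apart. That test does not bear on the effect of Control 3. Alternatives were DESeq2 1.42.0, limma 3.58.1 on log2 of TPM plus 1 or 0.1, other scalings, no filter, a replicate block, left-out libraries and Control 3 as the only control. Ratios, with 0.5 added to each count, were compared by exact permutation in scipy 1.17.1. A level of 3 counts is 0.165 to 0.331 CPM, which covers counting error only. The genes, lists and tests were chosen with earlier results of these data known. Named genes are the 10, 7 set companions (Clock, Bmal1, Nr1d1, Nr1d2, Tsc22d3, Fkbp5 and Usp2), the 3 called genes of smallest p in each list, and the 3 genes most like each of Per2, Dbp, Hlf and Nfil3, and any gene outside this rule is said to be picked out for its value. A companion gene left out of its list is not reported here.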

Additional observations from a re-analysis of the deposited data

How the results depend on the processing

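Hlf and Nfil3 kept their direction and call in all 15 alternatives. The count of higher clock genes was 2 to 7 and that of lower ones 0 to 1 when 1 library was left out. In these fits 12.8% to 23.6% of all tested genes were higher. The 7 came from the fit without Control 3, where that share was 23.6%. The 1 lower gene, Dbp, came from the fit without Control 1, where 8.83% of genes were lower. Lower clock genes numbered 1 on library totals, 3 on each TPM setting and 1 against Control 3 alone. Over all genes, library totals gave 1759 higher and 6577 lower, log2(TPM + 1) gave 1242 and 9309, log2(TPM + 0.1) gave 1224 and 9156, log2(TPM + 1) without a filter gave 1298 and 9706, and Control 3 alone gave 1886 and 1304. With 1 library left out, 1563 to 4212 genes were lower. Some log2 fold changes turned negative. On library totals these were Per2 at -0.019, Cry1 at -0.25, Cry2 at -0.26, Bmal1 at -0.20, Nr1d1 at -0.34, Tsc22d3 at -0.13 and Csnk1d at -0.095. On TPM plus 1, filtered or not, and plus 0.1, they were Per2 at -0.18 and -0.18, Per3 at -0.17 and -0.18, Cry1 at -0.45 and -0.48, Cry2 at -0.49 and -0.49, Tef at -0.11 and -0.11, Bmal1 at -0.30 and -0.32, Nr1d1 at -0.57 and -0.57, Tsc22d3 at -0.35 and -0.35, Bmal2 at -0.037 and -0.043, and Csnk1d at -0.32 and -0.32. Against Control 3 alone they were Per2 at -0.26, Per3 at -0.035, Cry1 at -0.029, Cry2 at -0.10, Nr1d1 at -0.20 and Tsc22d3 at -0.14, while Id2 turned positive at 0.47 and Cirbp at 0.046. Nr1d1 was also -0.0061 with DESeq2 size factors, -0.0032 with no filter and -0.0061 in DESeq2. With 1 library left out, Clock ranged from -0.12 to 0.0226, Bmal1 from -0.14 to 0.54, Nr1d1 from -0.0868 to 0.12, Fkbp5 from -0.36 to 0.0465, the ratio difference of Dbp over Bmal1 from -1.35 to 0.0198, of Per2 over Cry1 from -0.00709 to 0.56 and of Nr1d1 over Bmal1 from -0.68 to 0.27. The cause of these changes was not tested. Same-numbered libraries deviated together only weakly (correlations 0.0481, 0.0894 and 0.0553), although each ADISSP library correlated best with its own number. With 3 libraries a group, these correlations cannot show whether the numbers pair the libraries. With a replicate block 2947 genes were higher and 2594 lower, and among the clock genes 2 and 0. Ciart had the fewest counts of the 10, at 20 to 59 a library.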
